A study of Mus musculus with 8 samples.

Results

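Fn1, Tgfbi, Axl, Mmp14, Mmp2, Timp1, Timp2, Timp3, Plat and Plau encode secreted matrix proteins, a receptor, matrix proteases and protease inhibitors that mesenchymal cells use. They were followed as one set of 10 gene symbols, chosen by function with earlier results of these data known. The set was read from every probe that the platform annotation gives to those symbols. Of the 10 symbols, 9 had a probe, with 12 probes among the 25697 on the array, and Fn1 was not analysed here. Probes detected on at least 4 arrays, with a detection p under 0.05, were retained. This kept 8 of the 12 probes and 7 of the genes, among 8830 genes tested in all, while Plat and Plau were not retained. RNA from V6.5 cells, a mouse embryonic stem cell line, was hybridized to Illumina MouseRef-8 v2.0 bead arrays. The 4 GRHL2 knockout (KO) arrays came from clones 1 to 4, and the 4 GRHL2 wildtype (WT) arrays from V6.5 subclones 1 to 4, with 1 array per clone or subclone. All 8 cultures were epiblast-like cells, made by taking LIF and the 2i inhibitors, a GSK3 and a MEK inhibitor, away from embryonic stem cells for 3 days. How the knockout was made was not given in the sources used here, and clone, culture and hybridization could not be told apart in the spread within a group.

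GRHL2 is a grainyhead-family transcription factor of epithelia, known for activating cell adhesion genes. In an epithelial to mesenchymal transition, cells lose such adhesion and take up the production and remodelling of an interstitial matrix. Fibronectin (Fn1) and the TGF-beta-induced protein (Tgfbi) are secreted matrix ligands of integrins, and Axl is a receptor tyrosine kinase of the TAM family. Mmp14 is a membrane-anchored metalloproteinase that activates secreted proMMP2, with TIMP2 as the bridge between them, while the TIMPs bind and inhibit active metalloproteinases. Plat and Plau encode the tissue-type and urokinase-type plasminogen activators, which turn plasminogen into the matrix-degrading protease plasmin.

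The GRHL2 probe followed the labels. Grhl2 fell to 7.71 ± 0.43 in KO, against 8.84 ± 0.60 in WT (log2 normalized intensity, mean ± SD, n = 4 each), a log2 change of -1.13 (SE 0.30, limma adjusted p = 0.0369), and the groups did not overlap. This call was lost when any one of KO arrays 2, 3 and 4 or WT arrays 1, 2 and 4 was left out, with limma adjusted p-values between 0.0164 and 0.0815 over the 8 such fits. Where in the gene the knockout lies relative to the probe was not given in the sources used here. The pluripotency genes Pou5f1, Sox2 and Nanog and the epiblast genes Fgf5 and Otx2 were detected on 8 of 8 arrays, and of 13 epiblast markers with a probe Dnmt3a alone was detected on no array. Before normalization the arrays were dimmer in KO, with a mean probe intensity of 508 ± 51.5, than in WT, with 703 ± 32.4 (SD, n = 4 each, exact two-sided permutation p = 0.0286, the smallest that 70 assignments allow). Quantile normalization, used for the values below, gives every array the same distribution and so removes this gap. By limma with Benjamini-Hochberg adjustment, 578 genes were higher and 633 lower in KO at a threshold of 0.05. Median scaling gave 237 higher and 1864 lower, and no normalization between arrays gave 36 higher and 5730 lower. Both of these kept the background correction of each array. The median change of all genes was 0.013 after quantile normalization, -0.19 after median scaling and -0.58 without normalization between arrays, so changes are given relative to the array as a whole. In bulk RNA, fewer cells with a transcript and less of it per cell cannot be told apart.

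Matrix and invasion genes were mostly higher in KO epiblast-like cells after quantile normalization. Tgfbi, Axl, Mmp14 and Timp1 rose, by 1.42-fold to 2.55-fold. Mmp2 and Timp3 lay above 0 and Timp2 below 0 without passing the test, and Plat was detected on no array. Thus 4 of 7 tested genes passed the test, where 13.7% of all tested genes did: 4 rose, where 6.55% of all genes did, and 0 fell, where 7.17% did. Of the same genes, 6 lay above 0, as did 51.4% of all genes, and in 3 the KO arrays all lay above the WT arrays, as in 12.4% of all genes, while 23.2% of all genes had no overlap in either direction. The median log2 change was 0.55 over the 7 genes and 0.013 over all genes. These shares are given without a test, since the set was chosen with earlier results of these data known. Every one of the 7 was detected on at least 3 arrays of each group. Without normalization between arrays Tgfbi stayed above 0, while Mmp14, Mmp2, Timp1 and Timp3 lay below 0. Axl had no clear direction there, at 0.07 (SE 0.20, limma adjusted p = 0.741).

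**Figure D1:**
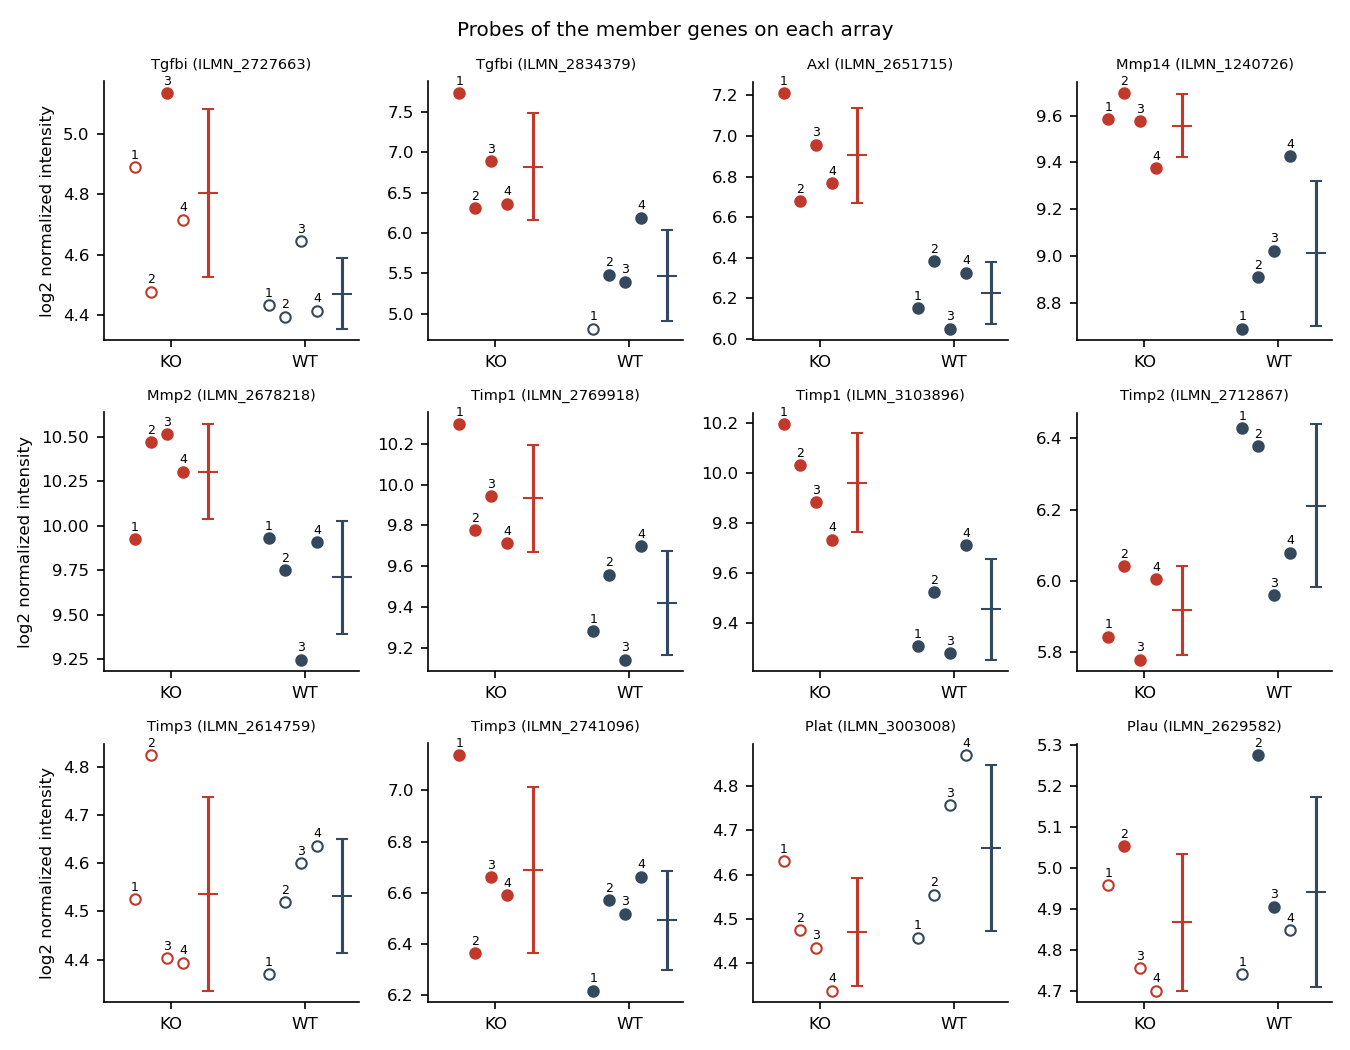
Log2 normalized intensity (vertical axis, scaled per panel) of each of the 12 probes on the 4 KO arrays (left) and the 4 WT arrays (right); points are arrays with their clone or subclone number, filled where detected (detection p under 0.05) and open elsewhere, and bars show the mean and SD. The groups do not overlap for Tgfbi (ILMN_2834379), Axl and both Timp1 probes, and 1 KO array lies below the highest WT array for Mmp14; without normalization between arrays Mmp14, Mmp2, Timp1 and Timp3 lie lower in KO.

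Tgfbi, the matrix ligand, had the largest log2 change of the 7 after background correction. Its log2 normalized intensity was 7.73, 6.31, 6.89 and 6.36 on KO arrays 1 to 4, against 4.82, 5.48, 5.40 and 6.19 on WT arrays 1 to 4. Every KO array lay above every WT array, but the closest pair differed little, and KO array 1 stood well above the other KO arrays. The gene rose 2.55-fold, a log2 change of 1.35 (SE 0.35, 95% interval 0.57 to 2.13, limma adjusted p = 0.0340, 4 KO and 4 WT arrays). Tgfbi was also higher in KO and past the threshold after median scaling, by 1.12 (limma adjusted p = 0.0392), and without normalization between arrays, by 0.84 (limma adjusted p = 0.0456). Its size depended on the background step: without background correction the change was 0.52 (limma adjusted p = 0.0494), below the 0.53 of Mmp2, and with an offset of 50 it was 0.91 (limma adjusted p = 0.0283). The probe was near the detection limit in WT, where it was detected on 3 of 4 arrays, with a detection p of 0.0677 on WT array 1. The call was lost when KO array 3 or WT array 1, 2 or 3 was left out, with log2 changes between 1.06 and 1.56 and limma adjusted p-values between 0.0348 and 0.0854 over the 8 such fits. A second Tgfbi probe, ILMN_2727663, was detected on 1 array only, KO array 3, and gave no further reading.

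Axl, the receptor, rose with the lowest limma adjusted p of the 7 genes. Its log2 normalized intensity was 7.21, 6.68, 6.96 and 6.77 on the KO arrays and 6.15, 6.38, 6.05 and 6.33 on the WT arrays. Each KO array lay above each WT array. The gene rose 1.60-fold, a log2 change of 0.68 (SE 0.14, 95% interval 0.36 to 0.99, limma adjusted p = 0.0170). It stayed past the threshold in 8 of 8 fits that left out 1 array, with limma adjusted p-values between 0.0235 and 0.0459. Without background correction the change was 0.30 (limma adjusted p = 0.0221). The size also depended on the scaling: it was 0.38 after median scaling (limma adjusted p = 0.115) and 0.07 without normalization between arrays (limma adjusted p = 0.741). In the deposited intensities the groups overlapped, with 245, 187, 211 and 180 on the KO arrays against 213, 217, 198 and 236 on the WT arrays.

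Mmp14 and Mmp2, which act in one activation step at the cell surface, differed by similar amounts, but the change of Mmp14 alone passed the test. Mmp14 had log2 normalized intensities of 9.58, 9.70, 9.57 and 9.38 on the KO arrays, against 8.69, 8.91, 9.02 and 9.43 on the WT arrays. The KO arrays lay close together, and KO array 4 was below WT array 4. Mmp14 rose 1.46-fold, a log2 change of 0.55 (SE 0.16, 95% interval 0.19 to 0.90, limma adjusted p = 0.0472). That call held when WT array 4 was left out, and was lost when any one of the other arrays was (limma adjusted p between 0.0273 and 0.114). Mmp14 lay above 0 by 0.27 after median scaling (limma adjusted p = 0.258) and below 0, at -0.16, without normalization between arrays (limma adjusted p = 0.491).

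Mmp2, the secreted gelatinase, had log2 normalized intensities of 9.93, 10.47, 10.52 and 10.30 on the KO arrays, against 9.93, 9.75, 9.25 and 9.91 on the WT arrays. KO arrays 2, 3 and 4 lay above all WT arrays, and KO array 1 sat level with WT array 1. The log2 change was 0.59 (SE 0.18, 95% interval 0.18 to 1.01, limma adjusted p = 0.0589), which missed the threshold. Without KO array 1 it was 0.71 and passed (limma adjusted p = 0.0315), and leaving out any other single array did not bring it past. Mmp2 lies on chromosome 8, and on KO array 1 the 492 tested genes of that chromosome had a median of -0.43 relative to the other KO arrays, beside -0.50 for Mmp2. On WT array 3 Mmp2 was -0.62 relative to the other WT arrays, where the median of chromosome 8 was -0.02. The part of this chromosome-wide shift in the Mmp2 result was not tested beyond leaving the array out. Whether KO array 1 or the other KO arrays departed from WT on chromosome 8 was not tested either. The change was 0.35 after median scaling (limma adjusted p = 0.180) and -0.12 without normalization between arrays (limma adjusted p = 0.605).

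The inhibitors did not move as a group. Timp1 rose 1.42-fold, with log2 normalized intensities of 10.20, 10.03, 9.88 and 9.73 on the KO arrays against 9.31, 9.52, 9.28 and 9.71 on the WT arrays. The groups did not overlap, although KO array 4 and WT array 4 nearly met. The log2 change was 0.51 (SE 0.14, 95% interval 0.19 to 0.82, limma adjusted p = 0.0423). A second Timp1 probe, ILMN_2769918, gave a change of the same size and direction, with means of 9.93 ± 0.26 in KO and 9.42 ± 0.25 in WT (SD, n = 4 each, limma adjusted p over retained probes = 0.0699). The Timp1 call held without KO array 4 or WT array 4 and was lost without any one of the other 6 arrays (limma adjusted p between 0.0474 and 0.0989). The change was 0.25 after median scaling (limma adjusted p = 0.325) and -0.21 without normalization between arrays (limma adjusted p = 0.385).

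Timp2 had log2 normalized intensities of 5.84, 6.04, 5.78 and 6.0 on the KO arrays, against 6.43, 6.38, 5.96 and 6.08 on the WT arrays. The groups overlapped, and the log2 change of -0.29 (95% interval -0.59 to 0.0049) did not pass the test (limma adjusted p = 0.162). It was below 0 under each scaling, and passed the threshold after median scaling, at -0.55 (limma adjusted p = 0.0185), and without normalization between arrays, at -0.84 (limma adjusted p = 0.000814). Timp3, the inhibitor held in the matrix, had values of 7.14, 6.36, 6.66 and 6.59 on the KO arrays and 6.22, 6.57, 6.52 and 6.66 on the WT arrays. KO array 1 was the highest and the other 3 KO arrays lay within or beside the WT range. Its change of 0.20 (95% interval -0.19 to 0.58, limma adjusted p = 0.460) turned to -0.10 after median scaling and to -0.41 without normalization between arrays. The second Timp3 probe was detected on 0 of 8 arrays.

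**Figure D2:**
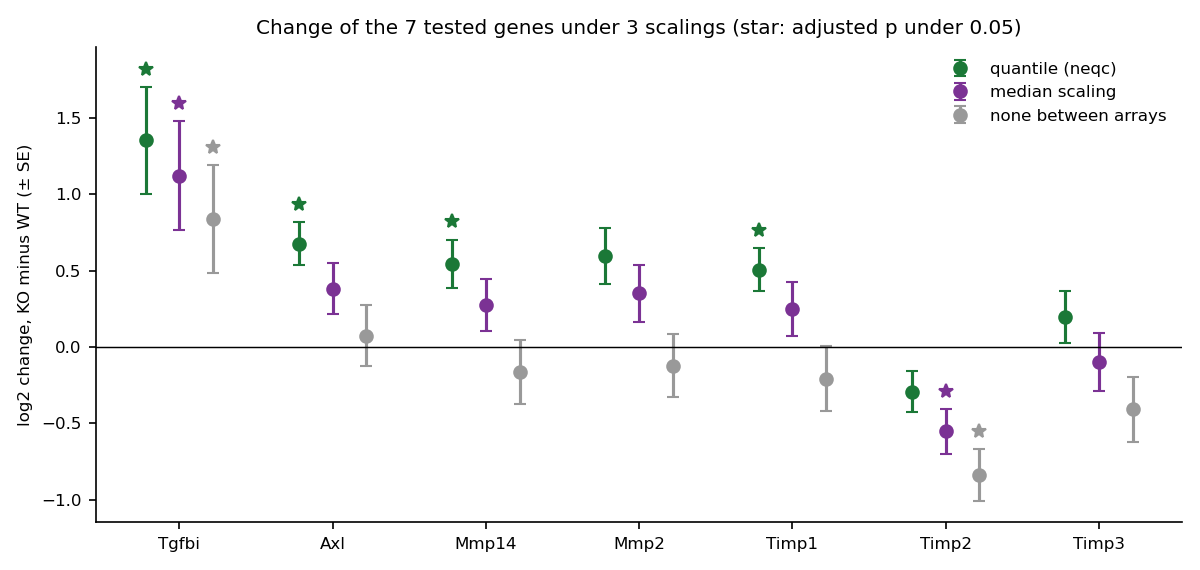
Log2 change, KO minus WT, with its SE (vertical axis) of each tested gene under quantile normalization, median scaling and no normalization between arrays, with a star where the limma adjusted p was under 0.05. Tgfbi is above 0 and starred under all 3 scalings and Timp2 is below 0 under all 3, while Mmp14, Mmp2 and Timp1 turn below 0 without normalization between arrays and Timp3 does so under both alternatives.

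The plasminogen activators were at background. Plat was detected on 0 of 8 arrays, with deposited intensities between 116 and 134 on the KO arrays and between 143 and 163 on the WT arrays. Plau was detected on KO array 2 and on WT arrays 2 and 3, with intensities of 142, 137, 134 and 128 on the KO arrays and 154, 165, 153 and 162 on the WT arrays. Neither gene was well above background in either group, so no fold is given, and a change in either one was not detectable with these probes. The mean intensity of Plau in KO was 85.3% and that of Plat 83.3% of the WT mean, beside 86.1% for the median probe of the arrays.

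Deposited intensities, before background correction and normalization, put the members differently. Mean intensity in KO was 116% of WT for Tgfbi, 95.3% for Axl, 90.0% for Mmp2, 88.3% for Mmp14 and 87.8% for Timp1. It was 82.5% for Timp3 and 73.8% for Timp2. For the arrays as a whole the mean over all probes, which bright probes carry, was 72.3% and the median probe 86.1% of WT. Tgfbi was thus the one tested gene of the 7 with a higher mean intensity in KO before any scaling. Its intensities were 301, 170, 207 and 163 on the KO arrays, against 156, 172, 168 and 226 on the WT arrays. KO array 1 was the highest, and the other 3 KO arrays lay within the WT range.

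**Figure D3:**
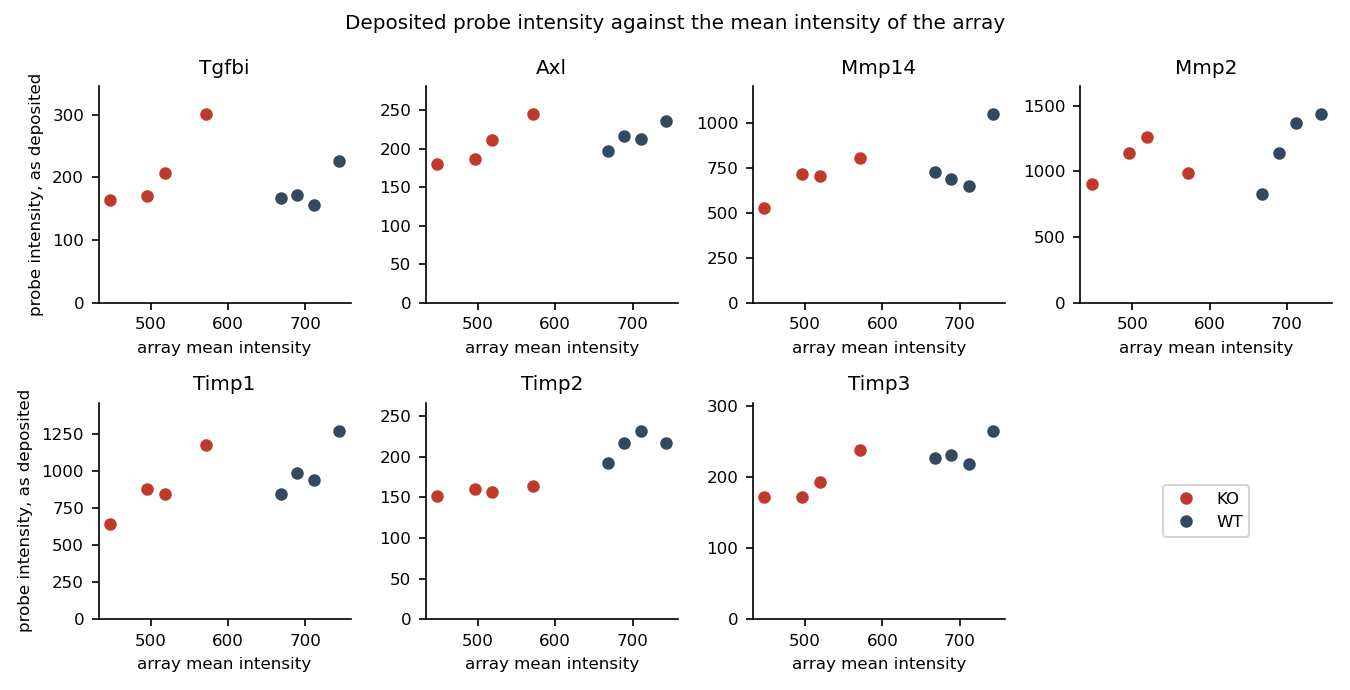
Deposited intensity of the probe that stands for each of the 7 tested genes (vertical axis) against the mean intensity of the array over all probes (horizontal axis), with 1 point for each of the 4 KO and 4 WT arrays. The KO arrays are all dimmer than the WT arrays, Timp2 is lower on each KO array than on any WT array, and the groups overlap in probe intensity for Tgfbi, Axl, Mmp14, Mmp2, Timp1 and Timp3.

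Single arrays weighed on several of these results. Leaving out 1 array at a time left between 1 and 4 of the 7 genes past the threshold, and Axl was the gene past it in 8 of 8 fits. In the same fits between 531 and 1440 of all 8830 genes passed, where 1211 did with all arrays. On WT array 3 the 428 tested genes of chromosome 6 had a median of 0.40 relative to the other WT arrays. KO array 1 had the shift of chromosome 8 given above for Mmp2, and a median of -0.16 on chromosome 6 relative to the other KO arrays. On WT array 4 the 716 tested genes of chromosome 2 had a median of 0.15 relative to the other WT arrays. Leaving out WT array 3 and KO array 1 together left Axl at 0.52 (limma adjusted p = 0.0254). It brought Mmp2 past the threshold at 0.56 (limma adjusted p = 0.0161). In that fit Tgfbi was at 1.02 (limma adjusted p = 0.0589), Mmp14 at 0.54 (limma adjusted p = 0.0821) and Timp1 at 0.37 (limma adjusted p = 0.0953). The direction of each of the 7 genes was kept in all 8 fits that left out 1 array.

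**Figure D4:**
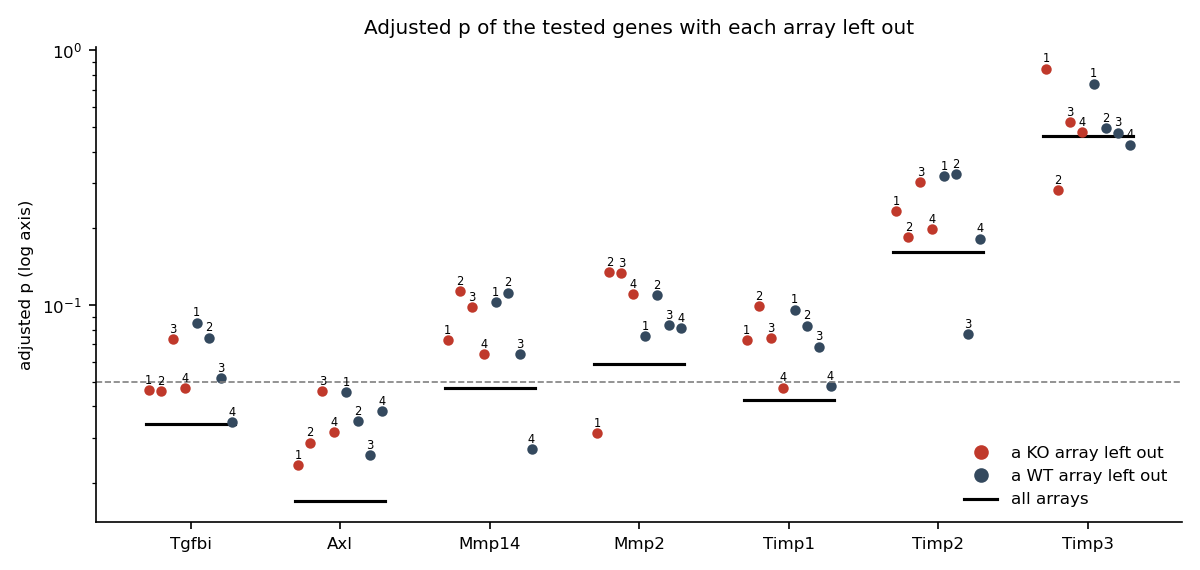
Limma adjusted p (vertical axis, log scale) of each tested gene in the 8 fits that leave out 1 array, with points numbered and coloured by the KO or WT array left out, a black line for the fit on all arrays and a dashed line at 0.05. Axl lies under 0.05 in 8 of 8 such fits, Tgfbi in 4, Timp1 in 2, and Mmp14 and Mmp2 in 1 each.

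The authors' deposited comparison table held smaller changes of the 7 genes than the background-corrected fit above, in the same directions. The authors' normalized values carry no background step, judged from their distribution. Fitted here, those values gave 0.52 for Tgfbi, 0.30 for Axl, 0.45 for Mmp14, 0.53 for Mmp2 and 0.44 for Timp1. In the authors' deposited table Axl had a log2 change of 0.26 (adjusted p = 0.0217), Timp1 0.38 (adjusted p = 0.0483) and Mmp2 0.53 (adjusted p = 0.0381), all past 0.05. The second Timp1 probe, ILMN_2769918, had 0.34 in the authors' deposited table (adjusted p = 0.125) and did not pass. Tgfbi, at 0.42 (adjusted p = 0.109), and Mmp14, at 0.41 (adjusted p = 0.0770), did not pass in the authors' deposited table.

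Promoter sequence is shown for genes that rose, since they moved in one direction and lie on different chromosomes. Sequences of the 250 bases before a transcript start were taken from RefSeq (GRCm38.p6), written in the direction of transcription with motif matches in capitals. In that build Tgfbi spans chr13:56609586-56639359, Axl chr7:25756500-25788924, Mmp14 chr14:54431598-54442456, Timp1 chrX:20870166-20874737 and Mmp2 chr8:92827290-92853421. They were available for 6 of the tested genes, and for Mmp2 none is shown. The Axl window, chr7:25788734-25788983 on the minus strand, precedes a start inside the gene and has 191 of its 250 bases within the span of Axl, so its sequence is not shown. The Tgfbi window is chr13:56609336-56609585 on the plus strand. The Mmp14 window is chr14:54431348-54431597 on the plus strand and the Timp1 window chrX:20869916-20870165 on the plus strand.
Tgfbi: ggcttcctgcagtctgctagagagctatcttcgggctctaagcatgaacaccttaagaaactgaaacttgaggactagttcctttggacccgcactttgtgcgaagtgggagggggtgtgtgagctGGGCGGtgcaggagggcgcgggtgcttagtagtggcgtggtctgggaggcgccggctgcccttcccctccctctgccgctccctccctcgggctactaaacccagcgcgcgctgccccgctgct
Mmp14: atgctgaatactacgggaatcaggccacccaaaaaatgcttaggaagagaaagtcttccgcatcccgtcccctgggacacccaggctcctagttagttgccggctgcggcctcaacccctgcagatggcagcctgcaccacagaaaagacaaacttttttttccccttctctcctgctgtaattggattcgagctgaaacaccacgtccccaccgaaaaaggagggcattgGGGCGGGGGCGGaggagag
Timp1: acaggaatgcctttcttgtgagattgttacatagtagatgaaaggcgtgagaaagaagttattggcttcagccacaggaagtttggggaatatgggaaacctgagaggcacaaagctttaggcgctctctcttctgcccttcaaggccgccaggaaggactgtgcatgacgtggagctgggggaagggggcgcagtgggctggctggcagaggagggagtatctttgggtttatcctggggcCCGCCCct

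The capitals mark GGGCGG, the core of the GC box bound by Sp and KLF factors, read on both strands, so that it appears as CCGCCC in Timp1. It lay 124 bases before the start in Tgfbi, 8 in Timp1, and 19 and 13 in Mmp14, where the matches adjoin. In the Axl window it lay 10 bases before the internal start, within the gene span. GGGCGG was in 6 of the 6 windows, those of Timp2 and Timp3 included, and in 32.7% of 32851 RefSeq promoter windows of the same length. The 6 windows held between 54.4% and 68% G and C, where the median window held 52.4%. The grainyhead motif AACNNGTT was in 0 of 6 windows and in 3.64% of all windows. AACCGGTT, a special case of it, was in 0 of 6 and in 0.116% of all, and the AP-1 motif TGANTCA in 0 of 6 and in 6.75% of all. CACCTG, the E-box read by ZEB and SNAI repressors, was in the windows of Timp2 and Timp3, 107 and 232 bases before the start, and in 17.2% of all windows. These are matches of letters in one short window.

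Genes whose pattern over the 8 arrays was most like a gene that rose were taken as the 3 with the highest Pearson correlation, as a description over arrays that share the group difference. For Tgfbi these were Rnft2 (r = 0.985), Kiz (r = 0.984) and Tmem33 (r = 0.982). Ccdc71 (r = 0.980), Lrwd1 (r = 0.975) and Slc9a8 (r = 0.975) were closest to Axl. Kcnh2 (r = 0.983), Dnttip1 (r = 0.979) and Sh3glb2 (r = 0.969) were closest to Mmp14, and Coro2a (r = 0.977), Zxda (r = 0.969) and Gjc1 (r = 0.963) to Timp1. With group means removed, the correlations of these 12 pairs lay between 0.872 and 0.967. The pairs were picked on these same 8 arrays as the closest among 8830 genes, so these values are no separate support. No gene was on more than 1 of these short lists, and none of the 7 tested genes was on one.

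Around these genes, 99 further genes of 9 pathway and marker lists were tested, of which 10 rose (10.1%, beside 6.55% of all genes) and 4 fell (4.04%, beside 7.17%). Among other metalloproteinases, 2 of 12 rose and 0 fell. Adam19, a membrane-anchored sheddase, averaged 8.63 ± 0.37 in KO and 7.80 ± 0.16 in WT, a log2 change of 0.83 (limma adjusted p = 0.0196). Mmp19 averaged 5.39 ± 0.35 in KO and 4.79 ± 0.19 in WT, a change of 0.61 (limma adjusted p = 0.0491), and was detected on 2 of 4 WT arrays. The Mmp19 call was lost without background correction, at 0.16 (limma adjusted p = 0.125), and with an offset of 50, at 0.31 (limma adjusted p = 0.0766). Mmp9, the other gelatinase, had a change of 0.18 (limma adjusted p = 0.452), and 9 of the 26 genes of this list with a probe were detected on no array. Of 9 regulators of metalloproteinases, 1 rose and 0 fell: Sfrp1, a secreted Wnt antagonist, averaged 8.28 ± 0.29 in KO and 7.37 ± 0.09 in WT, a change of 0.92 (limma adjusted p = 0.00703). Reck, a membrane-anchored inhibitor of MMPs, had a change of -0.07 (limma adjusted p = 0.753), and Furin, which cleaves the proform of Mmp14, one of -0.35 (limma adjusted p = 0.128).

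Within the plasminogen system 0 of 9 genes rose and 1 fell. S100a10, which with annexin A2 holds plasminogen at the cell surface, averaged 8.57 ± 0.47 in KO and 9.38 ± 0.12 in WT, a change of -0.81 (limma adjusted p = 0.0335). Plaur, the urokinase receptor, had a change of -0.03 (limma adjusted p = 0.941), and Anxa2 one of -0.52 (limma adjusted p = 0.343). In the TAM receptor system 1 of 7 rose and 0 fell. Tyro3, the TAM receptor related to Axl, averaged 6.77 ± 0.09 in KO and 6.04 ± 0.22 in WT, a change of 0.73 (limma adjusted p = 0.0101). Mertk, the other TAM receptor, had a change of -0.30 (limma adjusted p = 0.184), and the ligands Gas6, at 0.16 (limma adjusted p = 0.581), and Pros1, at -0.03 (limma adjusted p = 0.890), did not pass.

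Of 13 receptors and adaptors for fibronectin and TGFBI, 1 rose and 0 fell. Itgb1, the beta subunit of most matrix integrins, averaged 8.26 ± 0.11 in KO and 7.87 ± 0.15 in WT, a change of 0.39 (limma adjusted p = 0.0486) that turned to -0.32 without normalization between arrays. Its second probe gave -0.16 (limma adjusted p over retained probes = 0.424), so the gene has no single reading. Of 22 interstitial and matricellular matrix genes tested, 2 rose and 1 fell, and 14 of the 39 with a probe were detected on no array. Thbs2 and Thbs3 encode thrombospondins. Thbs2 averaged 6.38 ± 0.47 in KO and 5.24 ± 0.42 in WT, a change of 1.14 (limma adjusted p = 0.0231). Thbs3 averaged 8.46 ± 0.26 in KO and 7.74 ± 0.34 in WT, a change of 0.72 (limma adjusted p = 0.0352), with 0.33 and 0.88 from its other probes. Ccn1, a matricellular protein that was named after its values were seen, had a change of -0.64 (limma adjusted p = 0.0454). The mean over all its retained probes gave -0.36 (limma adjusted p = 0.0643), which did not pass. In the TGF-beta pathway 0 of 13 genes passed the test by limma, with 1 above 0 and 0 below 0 at an unadjusted p under 0.05; the brightest 2, Smad4 at -0.15 (limma adjusted p = 0.292) and Skil at -0.10 (limma adjusted p = 0.577), are its common mediator and one of its repressors. Of 5 AP-1 factors, 0 rose and Junb fell by 0.66 on the log2 scale (limma adjusted p = 0.0301).

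Mesenchymal markers outside the set split. Of 9 tested, 3 rose and 1 fell, with a median change of -0.07, and 3 of the 16 with a probe were detected on no array. Vim, which encodes vimentin, averaged 10.46 ± 0.34 in KO and 8.53 ± 0.43 in WT, a change of 1.93 (limma adjusted p = 0.00230). Zeb1, a repressor of epithelial genes, averaged 7.30 ± 0.51 in KO and 5.92 ± 0.22 in WT, a change of 1.38 (limma adjusted p = 0.00916), and Twist2 rose by 0.97 (limma adjusted p = 0.00511). Tcf4 fell by 0.54 on the log2 scale (limma adjusted p = 0.0137). Zeb2, at 0.46 (limma adjusted p = 0.0573), did not pass, although each KO array lay above each WT array. Snai1, at -0.41 (limma adjusted p = 0.151), and the smooth muscle genes Acta2, at -0.79 (limma adjusted p = 0.519), and Tagln, at -0.51 (limma adjusted p = 0.374), lay below 0 without passing.

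Calls of Sfrp1, Tyro3, Tcf4, Twist2, Vim and Zeb1 held in 8 of 8 fits that left out 1 array. Thbs2 was lost without KO array 3 or WT array 2 (limma adjusted p up to 0.0601), and Adam19 without KO array 3 or WT array 1 or 2 (up to 0.0545). S100a10 was lost without KO array 2 or 4 or WT array 1, 2 or 4 (up to 0.0810), and Junb without KO array 2 or 3 or WT array 1, 2 or 4 (up to 0.0748). Thbs3 held without KO array 4 or WT array 4 and was lost without any other single array (up to 0.0861). Mmp19 held only without KO array 2 (up to 0.124), Itgb1 only without KO array 1 (up to 0.124) and Ccn1 only without KO array 1 (up to 0.112). Itgb1, Sfrp1 and Junb lie on chromosome 8. On KO array 1 its tested genes had a median of -0.43 relative to the other KO arrays. Without WT array 3 and KO array 1 together these calls held (limma adjusted p of 0.0435, 0.00938 and 0.0307). Whether KO array 1 or the other KO arrays departed from WT on chromosome 8 was not tested. This fit therefore does not separate the calls from the shift. Tyro3 and Vim lie on chromosome 2, which had a median of 0.15 on WT array 4 relative to the other WT arrays. After median scaling the calls of Adam19 (limma adjusted p = 0.0944), Tyro3 (0.0612), Thbs3 (0.187) and Itgb1 (0.767) were lost. Without normalization between arrays Vim, at 1.22 (limma adjusted p = 0.00169), Zeb1, at 0.78 (0.0156), and Twist2, at 0.49 (0.0308), were the 3 of the 10 genes still higher and past the threshold. All 4 genes that fell were lower and past it under both scalings. Without background correction the changes were smaller by over 1.5 times, but still past the threshold, for Thbs2 at 0.37 (limma adjusted p = 0.0339), Zeb1 at 0.63 (0.0106), Twist2 at 0.30 (0.0124), Tyro3 at 0.30 (0.0122), Sfrp1 at 0.60 (0.00577) and Junb at -0.23 (0.0435).

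**Figure D5:**
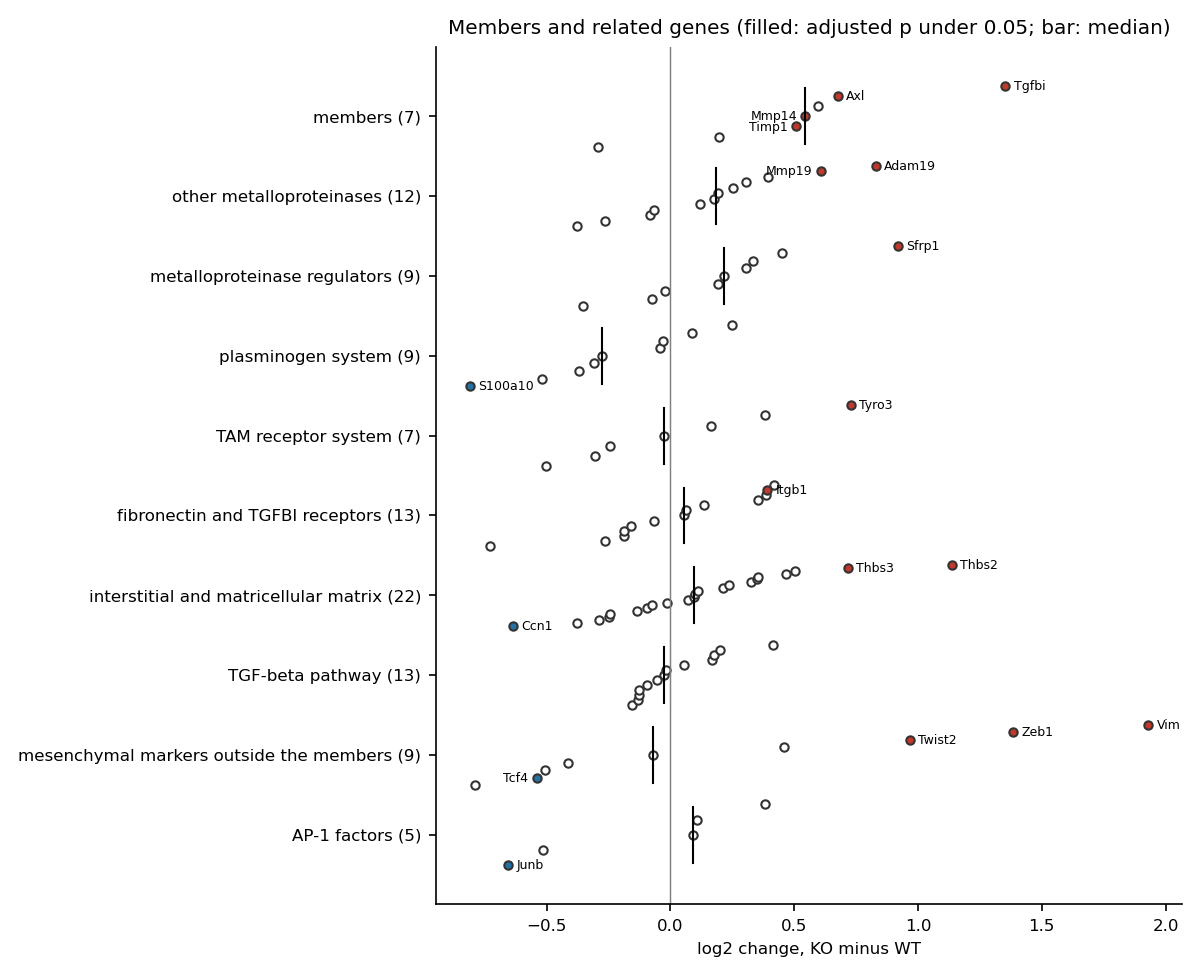
Log2 change, KO minus WT (horizontal axis), of the 7 tested genes and of the genes of 9 related lists, with the number tested in brackets, filled points for limma adjusted p under 0.05 and a vertical bar at each list's median. The median of the 7 genes is 0.55 and the medians of the other lists lie between -0.28 and 0.22; without normalization between arrays Mmp14, Timp1 and Itgb1 lie below 0.

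Markers of cells that could carry matrix genes into the cultures were read beside these values. Of 12 fibroblast markers with a probe, 7 were detected on no array, Col1a1, Col1a2, Col3a1, Postn, Lum, Fap and Pdgfrb among them, and 3 were tested. Of these, 0 passed the test by limma, and 0 reached an unadjusted p under 0.05. Their summed normalized intensity was between 608 and 1014 on the KO arrays and between 603 and 642 on the WT arrays, and Dcn, at 8.20 ± 0.48 in KO and 8.13 ± 0.15 in WT, was the brightest. Of 17 endoderm markers with a probe, 8 were tested, 1 rose and 1 fell, and Gata4, Foxa2, Thbd and Afp were detected on no array. Col4a1 fell by 0.79 on the log2 scale (limma adjusted p = 0.0206, lost without WT array 1 or 4, at up to 0.0542). Lama1, named after its values were seen, rose by 0.91 (limma adjusted p = 0.0418) with overlapping groups, and its call held only without KO array 4 or WT array 3 (at up to 0.106) and was lost without background correction, at 0.28 (limma adjusted p = 0.0680). The sum of the 8 was between 2412 and 3381 on the KO arrays and between 2668 and 3639 on the WT arrays. Of 6 trophoblast markers tested, 0 rose and 1 fell, with 0 above 0 and 3 below 0 at an unadjusted p under 0.05 by limma. Called or not, 0 of the 6 lay above 0, and their median log2 change was -0.91. Their sum was between 232 and 364 on the KO arrays and between 479 and 2675 on the WT arrays. Plac1 was detected on 0 of 4 KO arrays and 4 of 4 WT arrays, without passing the test (limma adjusted p = 0.169). Tfap2c fell by 2.62 on the log2 scale (limma adjusted p = 0.0249, lost without KO array 2, 3 or 4, at up to 0.0566). Its other probes, at -1.90 (limma adjusted p over retained probes = 0.0622) and -1.28 (0.168), did not pass, nor did the gene without background correction, at -1.55 (limma adjusted p = 0.0607). Of 3 mesoderm markers tested, 0 passed by limma, with 0 above 0 and 1 below 0 at an unadjusted p under 0.05. Their sum was between 129 and 186 on the KO arrays and between 118 and 177 on the WT arrays. Of 12 epiblast markers tested, 2 rose and 1 fell: Nanog fell by 1.03 on the log2 scale (limma adjusted p = 0.00158), while Pou3f1 rose by 0.88 (limma adjusted p = 0.0145) and Utf1 by 0.46 (limma adjusted p = 0.0190). The Utf1 change turned to -0.20 without normalization between arrays, and its call was lost without KO array 2 or WT array 2 or 4 (up to 0.0512). Of 7 naive markers tested, Klf2 rose by 1.03 (limma adjusted p = 0.0265, lost without KO array 3 or 4 or WT array 2 or 4, at up to 0.0674, and 0.58 without background correction) and 0 fell. Tfap2c lies on chromosome 2, which had a median of 0.15 on WT array 4 relative to the other WT arrays. Col4a1 and Klf2 lie on chromosome 8, shifted on KO array 1 relative to the other KO arrays. Nanog lies on chromosome 6, shifted on WT array 3 relative to the other WT arrays. Without KO array 1 and WT array 3 the calls of Col4a1 (limma adjusted p = 0.0296) and Nanog (0.00438) held, and Klf2, at 0.81 (0.0675), did not pass. Which arrays of a group departed from the other genotype on these chromosomes was not tested. The part of these cell states in the matrix and invasion results was not tested.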

How the data were processed

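RNA of 4 GRHL2 knockout and 4 wildtype V6.5 epiblast-like cultures was read on bead arrays, and groups came from the genotype labels. For 25697 probes, per the file headers, the deposited profile listed the mean bead intensity of each array, its detection p-value, the bead count and the standard error of the bead signal. Judged from their values, no background had been subtracted and no scaling applied. A second table by the authors held log2 values. Their sorted values on each array matched those of quantile-normalized log2 intensity with no background step (largest difference 4.97e-14). This compares the distribution of values and not single probes. The series value table held the same numbers as that second table. Their deposited table of the comparison listed log2 fold changes (KO minus WT), p-values and moderated scores. The submitters' processing notes name limma. The members and gene lists were chosen with earlier results of these data known.

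Background correction and quantile normalization used neqc (limma 3.58.1, R 4.3.3, offset 16). Retained were 12790 probes whose detection p was under 0.05 on 4 or more arrays, and the brightest retained probe stood for a gene. The background step and offset set the size of changes of dim genes. Symbols came from the platform annotation: 23978 probes had 1 symbol, 0 several and 1719 none. KO was compared with WT by lmFit and eBayes, two-sided, with Benjamini-Hochberg adjustment over 8830 genes and a threshold of 0.05; the fit was tested on simulated data. P-values set the groups against the spread between arrays of separate clones. Between 12414 and 13250 probes were detected per array, and 4 arrays per group limit the precision.

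Named genes were all members and their probes, the genes of each list with the largest change among those called with no overlap of groups (at most 4 per list, otherwise its 2 brightest), the 3 most alike genes per called member, and Grhl2. Values of other list genes were chosen after the values were seen. Same-numbered KO and WT arrays deviated together with correlations between -0.077 and 0.046, so no pairing by number was seen in these values. A shared culture or hybridization of same-numbered arrays was not tested. Alternatives in background correction, scaling, filter, probe choice, moderation, weights, covariate, block, threshold and arrays were run.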

Additional observations from a re-analysis of the deposited data

Results flagged for a closer look

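One reading among the 24 groups of 4 arrays examined, each a probe of a member in 1 genotype, stood apart. On WT array 3 the second Tgfbi probe, ILMN_2727663, had a log2 normalized intensity of 4.64, while the other WT arrays lay between 4.39 and 4.43. The gap to the nearest array was 0.850 of the range of the group, above the critical value of 0.829. Chance gives such a gap in about 5% of groups. The probe was detected on 0 of the 4 WT arrays, so the reading lies in the background, and no Tgfbi result rests on it.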

How the results depend on the processing

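Scaling between arrays reversed more changes than any other alternative. Without normalization between arrays 5766 genes were called instead of 1211, 78 instead of 21 genes over all related lists, and 2 instead of 4 members (Tgfbi higher, Timp2 lower); the changes of Mmp14 (-0.16), Mmp2 (-0.12), Timp1 (-0.21), Timp3 (-0.41), Itgb1 (-0.32) and Utf1 (-0.20) reversed. With median scaling 2101 genes and 2 members were called, and Timp3 reversed to -0.10. With the brightness of each array as a covariate, which the genotype nearly fixes, 7 genes, 2 related genes and 0 members were called, and Ccn1 reversed to 0.45. With array weights 2175 genes and 34 related genes were called. Without the detection filter 1 member was called, over 16593 genes: Tgfbi had an adjusted p of 0.0630, Mmp14 of 0.0683 and Timp1 of 0.0550. At a threshold of 0.01, 167 genes, 5 related genes and 0 members were called. Leaving out 1 array gave between 531 and 1440 genes, between 11 and 21 related genes and between 1 and 4 members; without WT array 3 and KO array 1 together 2 members were called. The mean of all retained probes put Timp1 at an adjusted p of 0.0506. Mmp2 passed the threshold under 8 of 23 alternatives, among them no background correction (0.0419), an offset of 50 (0.0396), detection on all 8 arrays (0.0499), trend and robust moderation (0.0288) and array weights (0.0121). With clone number as a replicate block, which no label ties to a shared source, 671 genes and 0 members were called (adjusted p of 0.0783 for Tgfbi, 0.0502 for Axl, 0.0918 for Mmp14 and 0.0882 for Timp1), and 1 of 4 KO arrays correlated best with the WT array of its own number. The cause of these shifts was not tested. Over 29 named genes, with 22 or 23 alternatives each, 655 of 663 changes kept their direction. The stricter threshold, the moderation and the replicate block leave the change itself as it was, so they could not reverse it. Every reversal came from a change of scaling or, for Ccn1, from the brightness covariate. The tally is therefore no measure of how firm the directions are. Probes near background, as those of Tgfbi in WT, Plat and Plau, limit what small changes can be read.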
